A study of Mus musculus with 4 samples.

Results

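Type I interferon-stimulated genes are the genes that cells switch on when interferon α or β reaches its receptor. Here 39 of them were selected by gene symbol from the 54446 genes of a mouse mammary gland RNA-seq table, and all 39 were found and lay above 0 in each of the 4 libraries. They comprise 5 RNA sensors and nucleic acid binding proteins, 6 genes of the OAS family, 3 of the IFIT family, 4 transcription factors, 5 genes of the ISG15 system, 4 restriction factors, 4 nucleotide and nucleic acid enzymes, 3 genes of ADP-ribosylation and 5 others.

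The study asked how baicalin, a plant flavone glucuronide, acts on mammary epithelial cells. Mammary cells of wild type C57BL/6 mice were sorted by FACS into basal and luminal cells, grown in 3D culture in Matrigel, and given DMSO or 100 μM baicalin in the medium. All cultures share this medium, which carried insulin, transferrin, selenium and EGF, so DMSO is the vehicle control and no library stands for freshly isolated tissue. The 4 groups, basal DMSO, basal baicalin, luminal DMSO and luminal baicalin, have 1 library each, and the labels give neither the age of the mice nor how many were pooled. No difference between groups therefore has a replicate check, and no p-value is given.

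Interferon α and β bind a receptor made of IFNAR1 and IFNAR2, whose kinases JAK1 and TYK2 phosphorylate STAT proteins such as STAT2. Together with IRF9 these form the factor ISGF3, which binds the interferon-stimulated response element (ISRE) in the promoters of its target genes. The products of these genes detect foreign nucleic acid, degrade RNA, block translation or hold back viral particles, and several of them (STAT2, IRF7, IRF9) feed back on the pathway itself. Epithelial cells such as those of the mammary gland carry this pathway and express part of these genes at a low level without infection.

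The promoters of several members carry the core of the response element, and stretches from some of them are shown. These include Isg15 and Ifit1, which are among the members with the largest differences between libraries. Other members with large differences, such as Oasl2, Cmpk2 and Ifi44, had no such core in the bases searched. For Rtp4 and Usp18, also with large differences, no promoter sequence was matched. The core was searched as GAAA, any 2 bases and GAAA again on the gene strand, or as TTTC, any 2 bases and TTTC where it lies on the other strand, in RefSeq windows of 300 bases (250 before the transcript start and 50 from it) on GRCm38.p6. Each stretch is 60 bases on the strand of the gene, ends before the transcript start, and has the matching bases in capitals.
Isg15, chr4:156200856-156200915, minus strand: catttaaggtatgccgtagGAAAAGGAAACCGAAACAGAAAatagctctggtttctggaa
Ifit1, chr19:34640769-34640828, plus strand: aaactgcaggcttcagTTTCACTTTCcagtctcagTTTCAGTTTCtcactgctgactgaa
Ifit3, chr19:34583365-34583424, plus strand: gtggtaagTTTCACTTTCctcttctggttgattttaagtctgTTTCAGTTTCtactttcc
Oas1a, chr5:120907526-120907585, minus strand: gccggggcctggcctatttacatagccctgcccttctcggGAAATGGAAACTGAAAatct
Oas1g, chr5:120887614-120887673, minus strand: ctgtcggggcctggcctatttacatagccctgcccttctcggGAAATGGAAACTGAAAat
Rsad2, chr12:26456538-26456597, minus strand: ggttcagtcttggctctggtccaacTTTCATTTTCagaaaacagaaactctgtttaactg
Bst2, chr8:71537565-71537624, minus strand: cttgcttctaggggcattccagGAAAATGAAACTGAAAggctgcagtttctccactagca

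In Isg15, 3 overlapping matches ran from -78 to -57, counted from the transcript start as 0. Ifit1 and Ifit3 each held 2 matches on the opposite strand, which lay apart from each other. The stretches shown for Oas1a and Oas1g are nearly the same sequence, with 57 of 58 aligned bases identical at a shift of 2 bases. A different element, the gamma-activated site, searched as TTCNNNGAA, is shown for Irf1, a member without a match to the ISRE core.
Irf1, chr11:53769898-53769957, plus strand: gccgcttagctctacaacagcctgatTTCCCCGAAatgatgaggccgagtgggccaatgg

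RefSeq windows were matched for 30 of the 39 members. The ISRE core lay in 13 of these 30, or 43.3%, and in 1079 of the 27025 genes with a window, or 3.99%. The gamma-activated site lay in 9 of the 30, or 30%, against 9.55% of all genes. These matches are letters in a window and are not a measurement of binding. Of the 13 members with the core, Ifih1, Eif2ak2, Ifitm3 and Ddx58 had it after the transcript start.

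**Figure D1:**
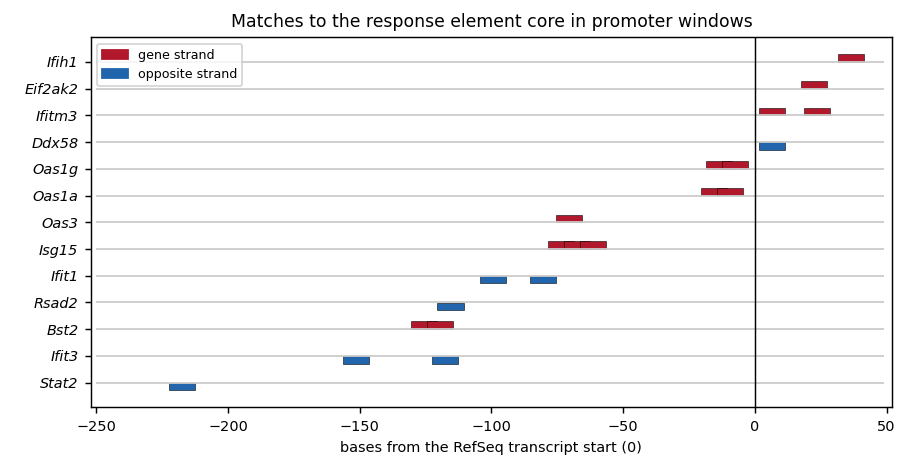
Positions of the ISRE core in the windows of the 13 members that hold it, in bases from the RefSeq transcript start at 0, with matches on the gene strand in red and on the opposite strand in blue. The matches of Isg15, Oas1a, Oas1g and Bst2 overlap each other, and those of Ifih1, Eif2ak2, Ifitm3 and Ddx58 lie after the start.

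Between 19356070 and 20648848 fragments were counted per library, and a single fragment on 1 kb of exons is worth about 0.05 FPKM (fragments per kilobase of exon, adjusted for library depth). The basal and luminal names are those of the labels, and the markers went against them. All 10 basal markers were higher in the libraries labelled luminal under both treatments, with summed levels of 1776 FPKM in basal DMSO, 481 in basal baicalin, 5454 in luminal DMSO and 7236 in luminal baicalin. The 10 luminal markers (keratins and epithelial genes) were all higher in the libraries labelled basal, with sums of 4616, 3290, 1398 and 1209 FPKM in the same order. Basal and luminal below mean only the labels.

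Markers also moved within the pair labelled basal, in which Krt5, a basal keratin, was at 128 FPKM with DMSO and 3.01 with baicalin. Basal markers were lower with baicalin in 9 of 10 cases, against 49.1% of the 17787 genes above 0 in all libraries. For 7 of the 10, the 95% interval of counting error for the ratio lay below 1 (26.3% of all such genes), and for 3 it held 1. Luminal markers in this pair were lower in 6 of 10 cases and higher in 4. Of 15 leukocyte markers, 13, 8, 12 and 12 were above 0 in the 4 libraries, with sums of 18.4, 55.4, 6.76 and 21.5 FPKM. Most of this came from Cd68, at 7.49, 51.5, 4.44 and 13.7 FPKM, and from Lyz2, while Ptprc, which encodes CD45, was at or below 0.0138 FPKM in every library. Of the plasmacytoid dendritic cell markers, Siglech and Klk1 were at 0 in all 4 libraries, Ccr9 was at 0 in 3 of them, and Tcf4, which is not limited to these cells, was at 3.75, 2.74, 7.82 and 5.06 FPKM. Endothelial markers summed to between 0.876 and 3.46 FPKM and fibroblast markers to between 2.60 and 10.4 FPKM. The study's sort stained CD31, CD45 and TER119 to gate out endothelial and blood cells. The part that these cells have in the results below was not tested, and in bulk RNA fewer cells of a type and less RNA per cell cannot be told apart.

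The basal DMSO library stood apart from the other 3 in the level of the interferon-stimulated genes. The median level of the 39 genes was 15.3 FPKM in basal DMSO, 2.36 in basal baicalin, 2.09 in luminal DMSO and 1.74 in luminal baicalin. At these medians, the genes lay above 79.9% of the 17787 genes expressed in all libraries in basal DMSO, and above 43.2%, 40.2% and 38.3% of them in the other libraries. A level of 5 FPKM or more was reached by 32, 18, 15 and 12 of the 39 genes in this order, against 44.2%, 44.4%, 44.7% and 44% of all tested genes. No member was under 1 FPKM in basal DMSO, while 16 were in luminal baicalin.

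For 36 of 39 genes the highest value was in basal DMSO, which held the highest value for 23% of all tested genes. The exceptions were Ifitm3, Samhd1 and Isg20. The lowest value lay in luminal baicalin for 26 genes, against 23.3% of all tested genes. Basal baicalin lay below basal DMSO and above luminal DMSO for 24 genes (14.7% of all tested genes), and 28 of the 39 genes were within 2-fold between basal baicalin and luminal DMSO, which is near the share of all tested genes, 68%.

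**Figure D2:**
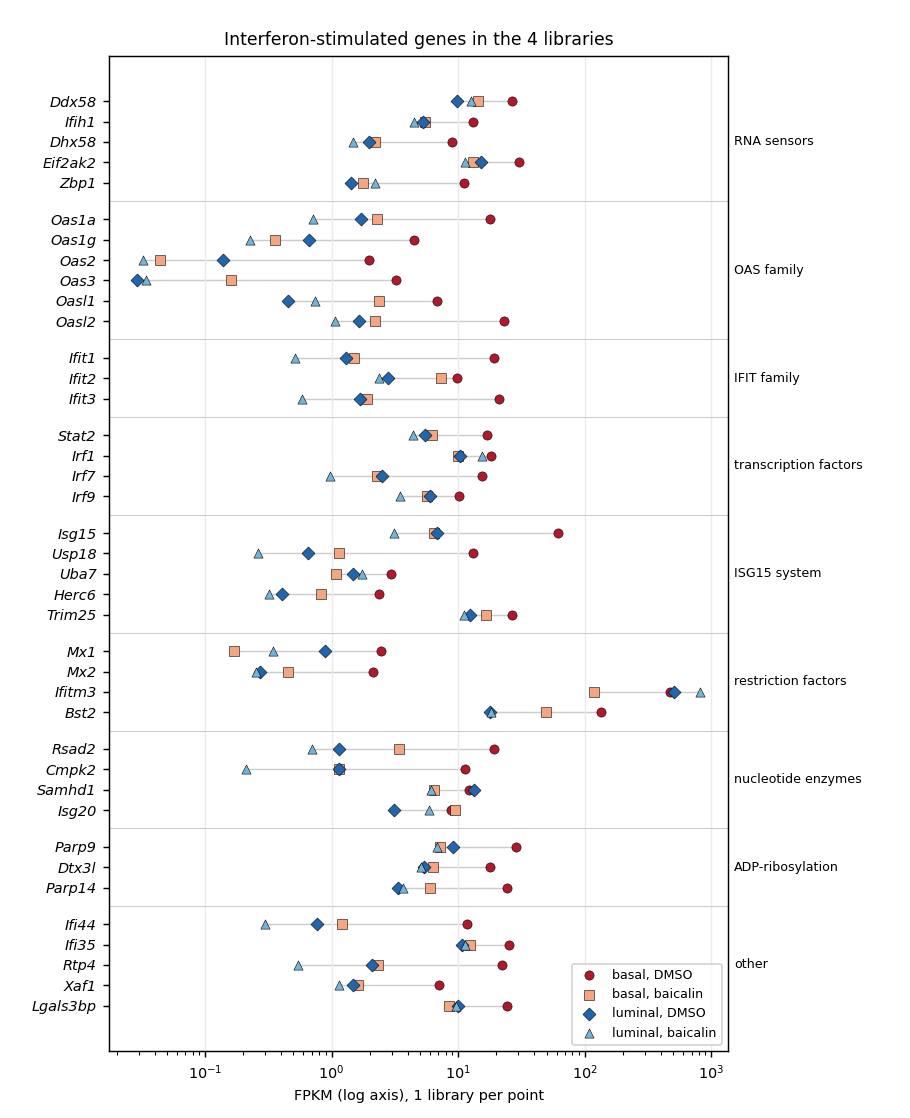
Level of each of the 39 genes in FPKM on a log axis, grouped by role, with 1 point per library and a grey line from the lowest to the highest. The basal DMSO point is the rightmost for 36 genes, and the luminal baicalin point is the leftmost for 26.

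In the pair labelled basal, 38 of 39 genes were lower with baicalin than with DMSO, where 49.1% of all tested genes were lower. The change was computed as log2((FPKM + 1)/(FPKM + 1)), and 29 genes lay below -1, or 74.4%, against 3.33% of all tested genes. None was higher by more than 1, against 2.15% of all tested genes. The median change was -1.57, with a range from -3.06 for Isg15 to 0.10 for Isg20, while the median over all tested genes was 0.01. On the plain FPKM ratio, 32 members were at less than 0.5 (11.5% of all tested genes). For 38 of the 39, the 95% exact interval of the ratio, which covers counting error only, lay below 1, as it did for 26.3% of all tested genes.

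In the pair labelled luminal the same genes had smaller changes on this scale, while on the plain ratio a part of them were also lower. With baicalin 28 were lower and 11 higher, where 54.4% of all tested genes were lower. Samhd1 was the 1 gene lower by more than 1, against 1.59% of all tested genes, and none was higher by more than 1, against 2.37%. The median change was -0.20, against -0.02 over all tested genes. The counting interval lay below 1 for 22 genes (28.7% of all tested genes) and above 1 for 5 (22.9%), and it held 1 for 12 genes. On the plain ratio 13 members were at less than 0.5 (8.64% of all tested genes), and apart from Samhd1 these were genes at 6.77 FPKM or less in luminal DMSO, where adding 1 FPKM shrinks the change. Among them, Cmpk2 was 5.51-fold lower (3.3 to 9.71) and Rtp4 3.82-fold lower (2.41 to 6.29).

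**Figure D3:**
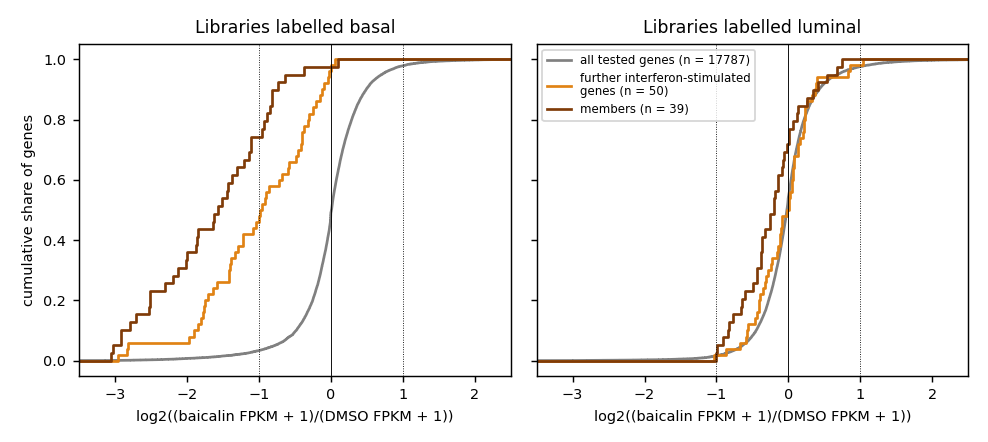
Cumulative share of genes against the log2 change with baicalin, for the 39 genes, for 50 further interferon-stimulated genes and for all 17787 tested genes, in the pair labelled basal and the pair labelled luminal. The line of the 39 genes has its median at -1.57 in the basal pair, to the left of all tested genes, and at -0.20 in the luminal pair.

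All 5 RNA sensors were highest in basal DMSO. Their levels, and those of the groups that follow, are given in the order basal DMSO, basal baicalin, luminal DMSO and luminal baicalin. Ddx58 (ENSMUSG00000040296), which encodes the 5′-triphosphate RNA sensor RIG-I, was at 26.7, 14.5, 9.80 and 12.7 FPKM. It was 1.85-fold lower with baicalin in the basal pair (95% counting interval 1.75 to 1.95) and 1.29-fold higher in the luminal pair (1.2 to 1.39). Both pairs thus differed by more than counting error, in opposite directions. Ifih1, which encodes the long double-stranded RNA sensor MDA5, was at 13.1, 5.50, 5.31 and 4.51 FPKM. Dhx58, whose product LGP2 modulates both, was at 8.96, 2.21, 1.97 and 1.48 FPKM. For these 2 genes the basal baicalin library was close to both luminal libraries, with log2 changes of -1.11 and -1.63 in the basal pair and -0.19 and -0.26 in the luminal pair.

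Eif2ak2, the kinase PKR that halts translation on binding double-stranded RNA, was the highest sensor in both DMSO libraries. Its levels were 30.4, 13.2, 15.1 and 11.4 FPKM. Zbp1, a sensor of Z-form nucleic acid, was at 11.2, 1.79, 1.43 and 2.22 FPKM. It was 6.27-fold lower with baicalin in the basal pair (5.19 to 7.61), the largest ratio among the sensors, and 1.55-fold higher in the luminal pair (1.2 to 2.01). In all, 5 of 5 sensors were lower in the basal pair, 4 of them with a log2 change below -1, and none passed 1 in the luminal pair.

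The OAS family includes the enzymes that make the oligoadenylates that activate the ribonuclease RNase L, and all 6 genes lie on chromosome 5. In the basal pair each had a log2 change below -1, with a median of -1.94. Oas1a (ENSMUSG00000052776) was at 18.0, 2.30, 1.70 and 0.719 FPKM. Its copy Oas1g was at 4.48, 0.358, 0.662 and 0.228 FPKM. The transcripts of both matched at 97.6% identity over 1861 bases, so that their separate values are uncertain. Their summed fragments gave a ratio of baicalin to DMSO of 0.117 (0.0944 to 0.143) in the basal pair and 0.397 (0.266 to 0.584) in the luminal pair.

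Oas2 and Oas3, the larger synthases, were nearly at the floor of detection outside basal DMSO. Oas2 was at 1.99, 0.0443, 0.139 and 0.0326 FPKM, from 176, 4, 12 and 3 fragments. Oas3 was at 3.26, 0.160, 0.0292 and 0.0343 FPKM, from 457, 23, 4 and 5 fragments. The basal ratio was 45.0-fold for Oas2 (17.2 to 167) and 20.3-fold for Oas3 (13.4 to 32.3), the highest of the 39 genes. In the luminal pair Oas2 had a ratio of 0.234 (0.0424 to 0.868), whereas Oas3 had a ratio of 1.17 with an interval from 0.252 to 5.91, so that no difference was detectable at this depth.

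The OAS-like genes Oasl1 and Oasl2 differed from each other in size of response. Oasl2 was the highest of the family in basal DMSO, at 23.2, 2.19, 1.65 and 1.06 FPKM, and was 10.6-fold lower with baicalin in the basal pair (9.38 to 12). Oasl1, whose product limits translation of Irf7 mRNA, was at 6.76, 2.36, 0.456 and 0.743 FPKM, and was 2.86-fold lower (2.33 to 3.54). Its basal baicalin level was above both luminal libraries, by 3.18-fold over luminal baicalin (2.21 to 4.66).

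Of the IFIT proteins, IFIT1 binds RNA that lacks the cap methylation of the host, and the genes of the family lie together on chromosome 19. Ifit1 was at 19.3, 1.5, 1.3 and 0.51 FPKM and was 12.9-fold lower with baicalin in the basal pair (10.2 to 16.3). Ifit3 was at 21.0, 1.92, 1.69 and 0.583 FPKM and was 11-fold lower (8.53 to 14.3). Its transcript matched that of Ifit3b at 97.8% identity over 1700 bases, and the 2 summed gave a ratio of 0.0727 in the basal pair and 0.337 in the luminal pair. Ifit2, the neighbour of both, did not follow them. It was at 9.79, 7.36, 2.82 and 2.36 FPKM, so that both basal libraries were above both luminal ones, and it was 1.33-fold lower with baicalin in the basal pair (1.19 to 1.48). Its window held no ISRE core by the letters searched. Nor did that of Oasl2, which had a log2 change of -2.92 in the basal pair, and the part of the core was not tested.

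Among the transcription factors, Irf7, which drives the interferon α genes, stood apart from the other 3. It was at 15.3, 2.30, 2.49 and 0.975 FPKM, 6.68-fold lower with baicalin in the basal pair (5.69 to 7.87) and 2.55-fold lower in the luminal pair (1.94 to 3.38). Stat2, the STAT used by type I and III interferon signaling, was at 16.9, 6.21, 5.43 and 4.39 FPKM. Irf9, the DNA-binding partner of the STATs, was at 10.2, 5.72, 6.03 and 3.46 FPKM. Its ratio was nearly the same in both pairs, at 1.78-fold lower (1.61 to 1.97) in the basal pair and 1.74-fold lower (1.53 to 1.98) in the luminal pair. Irf1 was at 18.2, 9.94, 10.4 and 15.5 FPKM. It was 1.83-fold lower with baicalin in the basal pair (1.68 to 2) and 1.49-fold higher in the luminal pair (1.36 to 1.63).

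ISG15 is a ubiquitin-like protein that is joined to other proteins by the enzymes UBA7 and HERC6 and removed by USP18. Isg15 (ENSMUSG00000035692) was at 61.1, 6.46, 6.77 and 3.14 FPKM, so that basal baicalin and luminal DMSO had 99 fragments each. Usp18, which also silences the interferon receptor, was at 13.1, 1.15, 0.648 and 0.260 FPKM and was 11.4-fold lower with baicalin in the basal pair (8.82 to 14.9). Trim25, a ubiquitin ligase that activates RIG-I, was at 26.6, 16.7, 12.5 and 11.2 FPKM, with the smallest change of the group in the basal pair, at -0.64. The enzymes Uba7 and Herc6 did not reach 5 FPKM in any library, with ranges of 1.09 to 2.97 and 0.323 to 2.38 FPKM. Both were highest in basal DMSO, and their changes of -0.92 and -0.88 in the basal pair fell short of -1 on this scale although their ratios were 2.72-fold and 2.86-fold lower. In this system the modifier and its protease thus had larger ratios than the conjugating enzymes.

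Of the restriction factors, Ifitm3, which blocks fusion of viruses with endosomes, had the highest level of all 39 genes. It was at 477, 118, 512 and 814 FPKM, and basal baicalin was the low library. It was 4.03-fold lower with baicalin in the basal pair (3.82 to 4.26) and 1.59-fold higher in the luminal pair (1.54 to 1.64). Bst2, or tetherin, which holds budding virions at the membrane, was at 135, 49.1, 18.0 and 18.1 FPKM. It differed 2.76-fold in the basal pair (2.56 to 2.98), while the luminal ratio was 1 with an interval from 0.858 to 1.17. The dynamin-like Mx1 and Mx2 were at 2.46 FPKM or less in each library and share a stretch of 843 bases at 95.3% identity. Their lowest values were 0.169 FPKM for Mx1, in basal baicalin, and 0.255 FPKM for Mx2, in luminal baicalin. Summed, they gave a ratio of 0.134 in the basal pair and 0.513 in the luminal pair.

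Of the nucleotide and nucleic acid enzymes, 3 were lower with baicalin in both pairs. Rsad2, or viperin, which makes a chain-terminating nucleotide, was at 19.3, 3.43, 1.14 and 0.704 FPKM. Its neighbour on chromosome 12, Cmpk2, a nucleotide kinase, was at 11.3, 1.14, 1.15 and 0.209 FPKM. Both were lower with baicalin in the basal pair, by 5.63-fold (4.98 to 6.38) and 9.90-fold (8.01 to 12.3), and in the luminal pair, by 1.63-fold (1.17 to 2.27) and 5.51-fold. Samhd1, which degrades deoxynucleotides, was high in both DMSO libraries and low in both baicalin libraries, at 12.1, 6.44, 13.3 and 6.11 FPKM. It was 1.88-fold lower in the basal pair (1.75 to 2.02) and 2.18-fold lower in the luminal pair (2.03 to 2.34). Isg20, an RNA exonuclease, was the 1 member higher in basal baicalin than in basal DMSO, at 8.80, 9.52, 3.11 and 5.91 FPKM. In the basal pair its interval of 0.928 to 1.26 held 1, and in the luminal pair it was 1.90-fold higher with baicalin (1.51 to 2.40).

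PARP9 and DTX3L form a complex that ubiquitinates and ADP-ribosylates targets, and PARP14 is a further ADP-ribosyltransferase. Parp9 was at 28.6, 7.18, 9.09 and 6.80 FPKM, Dtx3l at 17.9, 6.34, 5.41 and 5.10, and Parp14 at 24.4, 5.99, 3.33 and 3.68. All 3 lie close together on chromosome 16 and were 2.83-fold to 4.08-fold lower with baicalin in the basal pair, past -1 on the log2 scale. Parp9 and Dtx3l share 458 exon bases on opposite strands, where reads cannot be assigned if strand was not used in counting. Wider overlaps occurred in other members. Ifi35 shared 16.8% of its exon length with a gene on the opposite strand. Rtp4 and Herc6 shared 13.9% and 13.7% with a gene on the same strand, where strand cannot assign the reads. In the luminal pair the intervals of Dtx3l and Parp14 held 1.

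The remaining genes have less settled functions. Ifi44 was at 11.7, 1.21, 0.767 and 0.3 FPKM and Rtp4 at 22.2, 2.34, 2.08 and 0.545 FPKM, and with baicalin in the basal pair they were 9.60-fold and 9.49-fold lower. Xaf1, which promotes apoptosis, was at 7.03, 1.61, 1.47 and 1.15 FPKM. Lgals3bp, a secreted glycoprotein that binds galectin-3, was at 24.5, 8.47, 10.0 and 9.56 FPKM. Ifi35 was at 25.1, 12.4, 10.8 and 11.4 FPKM and was 2.02-fold lower (1.79 to 2.27), which is a log2 change of -0.96. For all 5 of these genes, basal DMSO was the high library and the other 3 lay nearer to each other, although Rtp4 and Ifi44 were also lower with baicalin in the luminal pair, by 3.82-fold (2.41 to 6.29) and 2.55-fold (1.73 to 3.84).

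**Figure D4:**
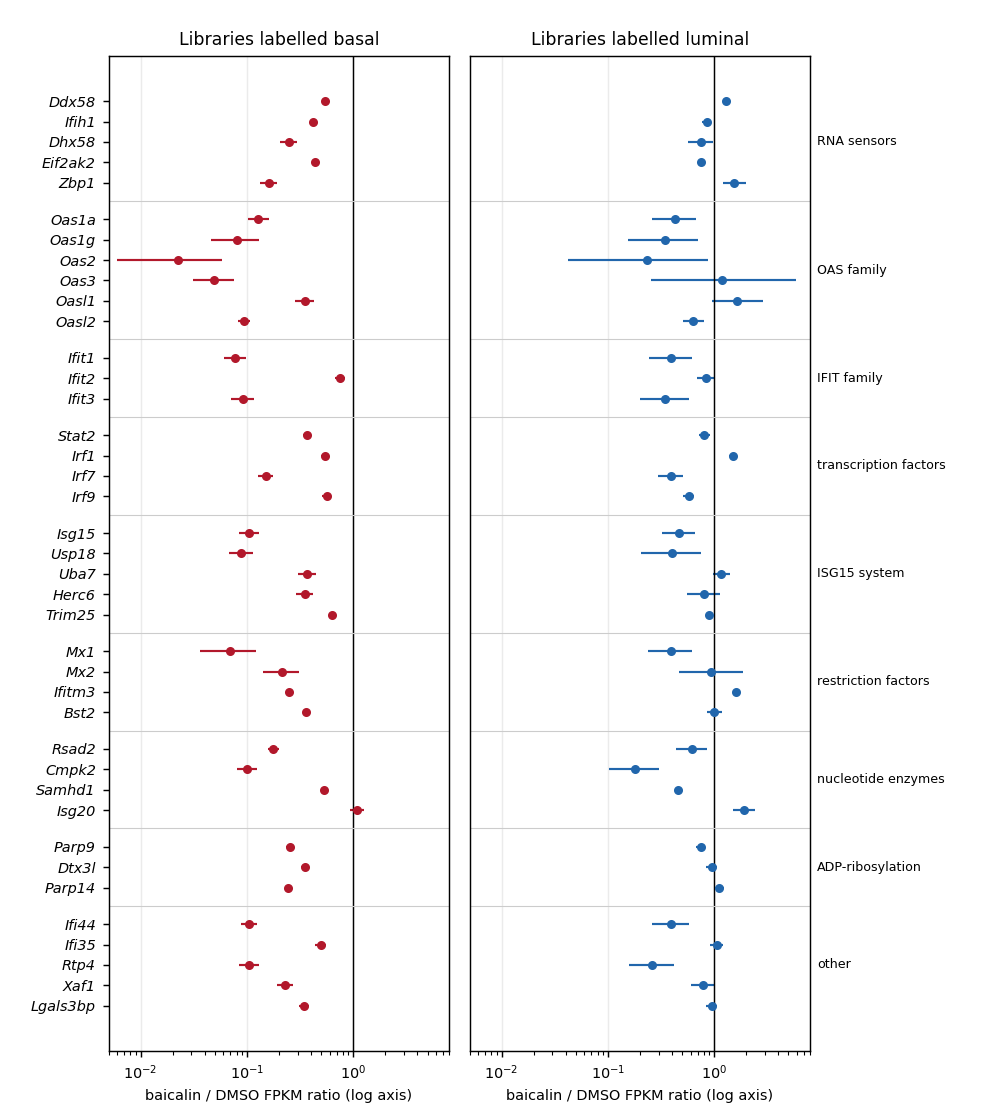
Ratio of FPKM, baicalin over DMSO, for each of the 39 genes on a log axis, with the pair labelled basal on the left and the pair labelled luminal on the right; bars are 95% exact intervals of counting error and the vertical line marks a ratio of 1. In the basal pair 38 bars lie left of 1, and in the luminal pair 22 lie left of it, 5 right of it and 12 cross it.

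The difference between the 2 responses was then computed per gene as the basal log2 change minus the luminal log2 change. Its median was -1.42 over the 39 genes, with a range from -2.67 for Ifitm3 to 0.19 for Samhd1. It was below -1 for 31 genes, against 4.41% of all tested genes, and above 1 for none, against 2.65%. Ddx58, Zbp1, Irf1 and Ifitm3 were lower with baicalin in the basal pair and higher in the luminal pair, each past its counting interval in both pairs. Such opposite directions occurred in 10.6% of all tested genes. In the order lower in basal and higher in luminal, which all 4 had, the share was 5.21%. Thus 4 of 39 is near the former share and above the latter, with no test. The difference itself has no test, since each group is 1 library.

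Libraries labelled luminal and basal were also compared within each treatment, and these comparisons use the same 4 libraries as those above. With DMSO, 37 of the 39 genes were lower in luminal than in basal (47.5% of all tested genes), and 32 had a log2 difference below -1, against 3.86% of all tested genes, and none was higher by more than 1, against 4.71%. The median was -1.56. The ratio reached 112-fold for Oas3 (43.2 to 411), 20.2-fold for Usp18 (14.4 to 29.2) and 16.9-fold for Rsad2 (13.8 to 21.0). Ifitm3 and Samhd1 were higher in luminal DMSO, with log2 differences of 0.10 and 0.13.

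With baicalin, 33 genes were lower in luminal than in basal (54.8% of all tested genes), but 4 had a log2 difference below -1, against 2.99%, and the median was -0.42. These were Bst2 at -1.39, Rsad2 at -1.38, Ifit2 at -1.32 and Rtp4 at -1.11. Ifitm3 was the 1 gene higher by more than 1, at 2.77, against 5.24% of all tested genes. The 39 genes thus differed less between the labels under baicalin than under DMSO, by 4 against 32 genes past -1, with no test of this difference. With no pseudocount the counts were 16 against 34, and with 0.1 FPKM added 14 against 34. Including Ifitm3, 4 genes were higher in luminal baicalin than in basal baicalin past their counting intervals (25.8% of all tested genes), and the other 3 were Irf1, Uba7 and Mx1.

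The rest of the pathway was followed through 109 genes, of which 82 were above 0 in all libraries. They are ligands, receptors and kinases, sensing adaptors, negative regulators and 56 further interferon-stimulated genes. Hardly any interferon mRNA was counted. The 21 interferon genes together had 10, 11, 4 and 7 fragments in the 4 libraries. Ifne, the epithelial interferon ε, was at 0.152, 0.668, 0.156 and 0.292 FPKM, from 2, 9, 2 and 4 fragments. Ifnb1 had 1 fragment in each basal library and 0 in each luminal one, where a count of 0 allows up to 3. At this depth no difference in a ligand between libraries was detectable.

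The receptor and kinase mRNAs had small median changes with baicalin in both pairs. Ifnar1 was at 15.9, 14.8, 10.2 and 10.3 FPKM and Ifnar2 at 10.2, 12.2, 4.98 and 5.50 FPKM. Jak1 was at 33.8, 32.8, 34.4 and 33.8 FPKM and Tyk2 at 9.85, 9.70, 4.44 and 6.16 FPKM. None of the 9 receptor and kinase genes passed 1 on the log2 scale in either pair. This count is near the share of all tested genes, of which 3.33% were lower and 2.15% higher by more than 1 in the basal pair. In the luminal pair 1.59% of all tested genes were lower and 2.37% higher by more than 1. Ifnlr1, a receptor chain of interferon λ, was higher with baicalin in the basal pair, at 5.78, 11.5, 9.73 and 7.35 FPKM. The median change of the 9 genes was -0.02 in the basal pair and 0.12 in the luminal pair.

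Of 13 adaptors and kinases of nucleic acid sensing, 12 were above 0 in all libraries and none passed 1 in either pair, with medians of -0.09 and 0.02. This count is near the share of all tested genes. In the basal pair 6 were lower past the counting interval (26.3% of all tested genes), 3 were higher, and 3 intervals held 1. On the plain ratio 2 were at less than 0.5 (11.5% of all tested genes). Named after their values were seen, Mb21d1 had a basal ratio of 0.456 (0.343 to 0.603) and Tmem173 of 0.618 (0.556 to 0.687). Tlr3, the endosomal receptor for double-stranded RNA, was at 32.5, 30.9, 9.36 and 9.56 FPKM, which follows the label and not the treatment. The kinase gene Tbk1 was at 23.9, 21.2, 24.1 and 22.2 FPKM. Ikbke was at 7.91, 8.77, 3.87 and 6.98 FPKM. Of 10 negative regulators 9 were above 0 in all libraries and none passed 1, with medians of -0.26 and -0.17. This count too is near the share of all tested genes.

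A list of 56 further interferon-stimulated genes, 50 of them above 0 in all libraries, also differed between the pairs. In the basal pair 49 of 50 were lower with baicalin (49.1% of all tested genes), 23 of them (46%) by more than 1 (3.33% of all tested genes), with a median of -0.97. Ifit3b, the copy of Ifit3, was at 9.44, 0.345, 0.465 and 0.145 FPKM. Its transcript is nearly identical to that of the member Ifit3, so that its separate value is uncertain. Slfn9, a Schlafen family gene, was at 17.2, 1.56, 5.67 and 2.26 FPKM. Iigp1, an immunity-related GTPase, was at 7.47, 0.205, 0.761 and 0.186 FPKM. Apol9b and Ddx60 came next among genes with at least 5 FPKM in a library, at -1.97 and -1.90. In the luminal pair 25 were lower and 25 higher (54.4% of all tested genes were lower), with a median of -0.01. Slfn2 was higher by 1.04 and Slfn9 lower, at -1.03, and no other gene of this list passed 1. Among genes of the list with at least 5 FPKM in a library, Ifi27, Irgm1 and Iigp1 followed, at -0.68, -0.60 and -0.57. Genes below that level reached -0.87 for Trim14, and 0.86 and 0.83 for Ifi204 and Ifi211, 3 genes chosen after their values were seen. On the plain ratio, 8 of the 50 were at less than 0.5 in the luminal pair (8.64% of all tested genes) and 5 were above 2. The counting interval lay below 1 for 17 (28.7% of all tested genes) and above 1 for 12 (22.9%). The plain luminal ratio of Iigp1 was 0.245 (0.143 to 0.387).

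**Figure D5:**
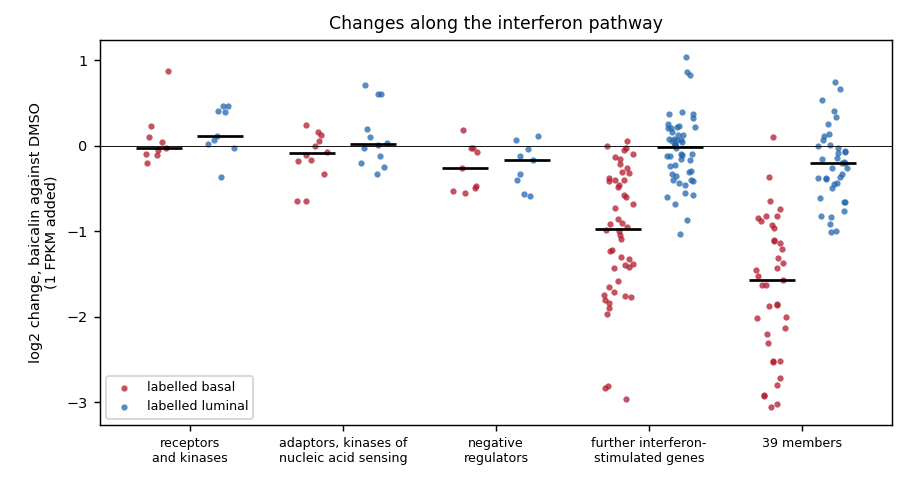
Log2 change with baicalin, with 1 FPKM added, for each gene of 4 pathway lists and for the 39 genes, in the pair labelled basal (red) and the pair labelled luminal (blue), with black lines at the medians. The medians of the basal pair are -0.02, -0.09, -0.26, -0.97 and -1.57 from left to right.

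The response element was set beside the values as a description. The 13 members with an ISRE core in the window had a median change of -2 in the basal pair, and 12 of them were lower by more than 1. The 17 members with a window and without the core had a median of -0.96, and 8 of them were lower by more than 1. In the luminal pair the medians were -0.33 and -0.15. The genes with the core were also higher in basal DMSO, with a median of 19.3 against 11.7 FPKM, and the part of this level in the difference was not tested. Ddx58 was the 1 gene with the core that did not pass 1 in the basal pair, and Oasl2, at -2.92, had the largest change of those without it.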

How the data were processed

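The authors made stranded poly(A) libraries, sequenced them on an Illumina instrument, aligned the reads with HISAT2 to GRCm38 with Ensembl release 94 genes and counted them with featureCounts. Per the labels' processing notes, Bowtie 0.12.2 and the builds mm8 and GRCm38 were also named. The authors deposited FPKM for 54446 genes, and these values were used. Whether counting used strand is not given in the sources used here. Samples of E2 + PG treatment were not analysed here.

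Members and lists were chosen with earlier results of these data known, and some listed genes are not reported here. Named genes were all 39 members, the ligands, receptors and kinases of the pathway lists, and the 5 further interferon-stimulated genes per pair with the largest change and at least 5 FPKM in a library. Changes were log2((FPKM + 1)/(FPKM + 1)) over the 17787 genes above 0 in all 4 libraries, with a threshold of 1. FPKM multiplied by the GENCODE M21 exon length fell on whole fragments (within 0.1) for 99.2% to 99.5% of low values and for all 39 members, which gave 19356070 to 20648848 fragments per library. Exact Clopper-Pearson intervals (95%) of ratios came from these fragments and cover counting error only. With 1 library per group no test was made. Near-identical copies (at least 95% over 200 bases and 20% of the exon length) were found with blastn 2.17.0. The computation was tested on simulated data. Alternatives were pseudocounts of 0.1 and none, other filters, TPM, centred ratios, a threshold of 2 and members without near-identical copies. Scripts ran in Python 3.11.15 with scipy 1.17.1, pandas 2.3.3, matplotlib 3.10.9 and numpy 2.4.6.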

Additional observations from a re-analysis of the deposited data

Results flagged for a closer look

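In 4 of the 39 genes the baicalin to DMSO ratio lay on opposite sides of 1 in the 2 pairs, past the counting interval in each, a share near the 10.6% of all tested genes that did so. In the order that all 4 had, lower in basal and higher in luminal, the share of all tested genes was 5.21%. The basal log2 change minus the luminal log2 change was -1.18 for Ddx58, -2.53 for Zbp1, -1.35 for Irf1 and -2.67 for Ifitm3. Each was lower with baicalin in the pair labelled basal and higher in the pair labelled luminal. The difference was not tested, because each value rests on 1 library per group. In Ifitm3 the basal baicalin library, at 118 FPKM, was low against 477, 512 and 814 FPKM in the others, whereas in Zbp1 the basal DMSO library, at 11.2 FPKM, was high against 1.79, 1.43 and 2.22 FPKM.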

How the results depend on the processing

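No direction of a summary value reversed under any of the alternatives. The median change in the basal pair was -2.01 with a pseudocount of 0.1, -2.02 with none and -1.98 in TPM, and the luminal to basal median with DMSO was -2.29, -2.55 and -2.16. In the luminal pair 12, 13 and 6 genes were lower past 1 under these 3 settings, and 0 with centred ratios, which leave Samhd1 just short of the threshold. Between labels with baicalin, 14, 16 and 13 genes were lower, and 2 were higher with no pseudocount. With a threshold of 2, the genes lower were 14 in the basal pair, 0 in the luminal pair, 16 and 0 between labels with DMSO and baicalin, and 8 for the difference of responses. A smaller pseudocount by construction enlarges the change of low genes; the cause of the TPM values was not tested. Single genes changed sign in 2 cases, Ifitm3 between labels with DMSO in TPM (-0.01) and Samhd1 between labels with baicalin after centring (0.00). The filters on low FPKM and leaving out the 6 members with near-identical copies changed no summary count by over 1.5 times. No replicate could be left out and no paired analysis was possible because each group has 1 library. Genes with few fragments, such as Oas2 and Oas3 outside basal DMSO, are limited by depth.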
